A study of Homo sapiens with 10 samples.

Results

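PTHLH, which encodes parathyroid hormone-related protein, and PTH, which encodes parathyroid hormone, were followed in a human colon cancer cell line and in the metastatic derivatives selected from it. Both genes were taken through every row of the deposited expression table whose single listed gene symbol was one of them. These were 16 of the 65535 rows, 11 for PTHLH and 5 for PTH, and no row listed either gene together with another symbol. The cells were SW620, an established line grown from a lymph node metastasis of a colon carcinoma. Metastases that arose from SW620 in balb/c nude mice, which lack T cells, were taken out, and their cells were grown again in culture in DMEM with 5% fetal bovine serum before RNA was taken. The arrays form 3 groups, with 4 arrays of the parental line, 3 of cells from liver metastases and 3 of cells from lung metastases. The parental cells were grown in the same medium, and all 10 RNA samples therefore came from cultured cells and not from tissue. The labels number the samples of a group as biological replicates without saying whether they came from separate metastases, mice or cultures, so the p-values measure only the spread between these samples.

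Parathyroid hormone is made by the parathyroid glands and raises blood calcium by acting on bone and kidney. Parathyroid hormone-related protein has a similar start of its chain and acts on the same receptor, PTH1R, but is made locally by many tissues, among them skin, cartilage and breast. Tumours that release it cause the high blood calcium of malignancy, and in bone metastases it makes osteoblasts promote the resorption of bone. Receptor signalling runs through the cAMP and phospholipase C pathways.

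Each value is a log2 expression level from an Affymetrix HG1.0ST array, normalised by the authors with the RMA method. Over the whole table the values ran from 2.55 to 13.99, and the median of an array lay between 8.52 and 8.6. A gene's level is given here as the mean of its rows on an array. Differences were tested with limma across all rows or all genes and were called at a Benjamini-Hochberg adjusted p under 0.05. The tested rows carried 4713 genes, of which 4660 lie on chromosomes 1, 10, 11 and 12, and other genes were not analysed here. The number of arrays, 3 or 4 in a group, limits the precision of every difference.

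One parental array stood apart from its group. Parental arrays 1, 2 and 3 correlated with each other at 0.986 to 0.988 over all tested rows but with parental array 4 only at 0.965 to 0.968. Parental array 4 correlated with the lung arrays at 0.963 to 0.964, against 0.940 to 0.957 for the other 3. With the liver arrays it correlated at 0.956 to 0.960, against 0.977 to 0.981 for the other 3. The lung arrays correlated with each other at 0.966 to 0.968, and the liver arrays at 0.985 to 0.990. The lung arrays thus differed among themselves about as much as parental array 4 did from its group. Parental array 4 correlated slightly more with its own group than with the lung arrays. Both genes were higher on parental array 4 than on the rest of its group, so results are given with and without it. Leaving it out was thus chosen with its values known. The p-values and calls without it are biased by that choice and describe only the remaining arrays. A further fit, which compares lung with parental array 4 alone and liver with the other 3 parental arrays, is called the array-set fit. Its lung against liver value is the lung difference minus the liver difference from these controls. That value therefore contains the gap between parental array 4 and the other 3, and is no direct difference between lung and liver arrays. The 2 sets of arrays in this fit were defined from the correlations and are not named in the labels. The lung comparison of that fit has a control of 1 array, whose spread is assumed to be that of the other groups, so its intervals and p-values, and calls kept or lost in it, describe the contrast with that single array and not a replicated comparison.

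The promoter windows of the genes are printed because SP1 and ETS1, a pair of factors known to act on a PTHLH promoter, were themselves measured on the arrays. Each line gives the 250 bases before the start site that RefSeq lists, read 5′ to 3′ along the gene's own strand. Capitals mark every match to GGGCGG (the SP1 motif), CCGGAA (the ETS motif) or TATAAA (the TATA box), found on either strand.
PTHLH: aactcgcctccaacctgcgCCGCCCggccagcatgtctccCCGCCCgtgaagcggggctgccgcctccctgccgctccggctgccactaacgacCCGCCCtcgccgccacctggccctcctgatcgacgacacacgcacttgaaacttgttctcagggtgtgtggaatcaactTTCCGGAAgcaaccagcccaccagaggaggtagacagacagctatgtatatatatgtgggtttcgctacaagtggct
PTH: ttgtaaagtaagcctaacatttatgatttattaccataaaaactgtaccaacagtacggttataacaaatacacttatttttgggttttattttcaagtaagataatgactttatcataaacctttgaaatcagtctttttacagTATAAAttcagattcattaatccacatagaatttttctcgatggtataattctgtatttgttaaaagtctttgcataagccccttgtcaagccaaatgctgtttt
The PTHLH window is chr12:27969977-27970226 and the PTH window chr11:13496182-13496431, both on the minus strand of GRCh38.p14. The PTHLH window held GGGCGG 3 times, at 231, 210 and 156 bases before the start, each read as CCGCCC on the gene's strand. It held CCGGAA at 77 and 75 bases before the start, once on each strand, and these matches overlap. The SP1 motif occurred in 42.6% of the 35116 RefSeq windows of this length, and the ETS motif in 14.5%. The PTH window held neither and held TATAAA once, at 105 bases before the start, a motif present in 10.7% of windows. Neither window held TGANTCA (AP-1, 6.57% of windows), AGGTCA (a vitamin D receptor half-site, 12.1%) or GACCACCCA (GLI, 0.199%). G and C made up 61.6% of the PTHLH window and 28.0% of the PTH window, against a median of 58.0% over all windows. PTHLH has several start sites, and the window shows the one RefSeq lists.

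PTHLH was higher in the liver derivatives than in the parental line when its rows were averaged. The parental levels were 7.64, 7.84, 8.02 and 8.93 on arrays 1 to 4, the liver levels 8.78, 9.13 and 9.18, and the lung levels 8.36, 8.79 and 8.40. Parental array 4 lay within the range of the liver arrays and above every lung array, while the other 3 parental arrays lay below all 6 derivative arrays. The group levels were 8.11 ± 0.57 for parental (SD, n = 4), 8.52 ± 0.24 for lung (SD, n = 3) and 9.03 ± 0.22 for liver (SD, n = 3). In that order, neither step between neighbouring groups passed the test.

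**Figure D1:**
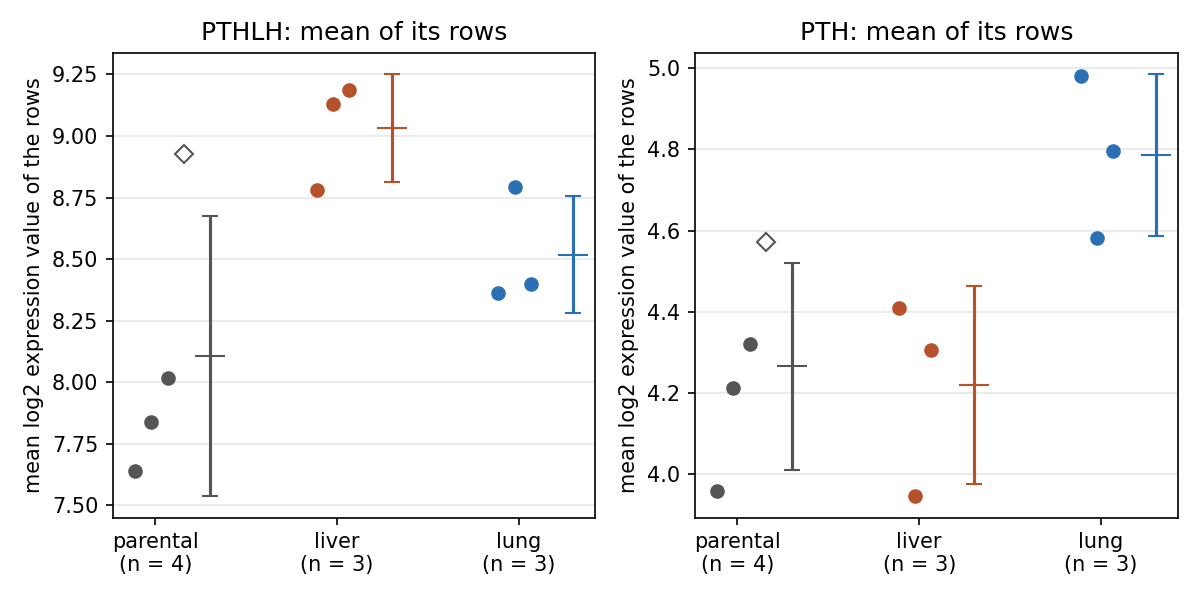
Mean log2 level of the rows of PTHLH and of PTH on each array, with points for arrays, lines for each group mean with its SD and the open diamond for parental array 4. The diamond sits with the derivatives for PTHLH, at 8.93, and is the highest parental array for PTH, at 4.57.

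The liver derivatives held 1.90-fold more PTHLH signal than the parental arrays, a log2 difference of 0.93 (SE 0.25, 95% interval 0.37 to 1.49, limma adjusted p = 0.0494). Of all 4713 genes, 4.33% were called higher in this comparison, and 1.36% had a larger difference in either direction. The call is marginal, and it was lost when any 1 array other than parental array 4 was left out (adjusted p 0.0546 to 0.182, over a range of 0.000251 to 0.182 for all alternatives tried). Without parental array 4 the difference was 1.20 (95% interval 0.88 to 1.53), or 2.30-fold, with a limma adjusted p of 0.000463, where 4.65% of genes were called higher.

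In the lung derivatives the level of PTHLH was 0.41 above the parental mean on the log2 scale (SE 0.25, 95% interval -0.15 to 0.97), and the difference did not pass the test (limma adjusted p = 0.238). Against parental arrays 1 to 3 it was 0.69 higher (95% interval 0.36 to 1.01), or 1.61-fold, and passed with an adjusted p of 0.00492, where 18.2% of genes were called higher. Against parental array 4 alone, in the array-set fit, it was 0.41 lower (95% interval -0.87 to 0.05, adjusted p = 0.259, with the spread taken from the other groups). By the median of the rows in place of their mean, with all arrays, the difference was 0.09 (adjusted p = 0.759). The sign of the lung estimate depended on which parental arrays served as the control.

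The lung derivatives lay 0.51 below the liver derivatives (SE 0.27, 95% interval -1.11 to 0.08, limma adjusted p = 0.189). Lung array 2, at 8.79, reached just above liver array 1, at 8.78, so the groups overlapped. The estimate was the same without parental array 4, with a narrower interval of -0.84 to -0.19 and an adjusted p of 0.0242, where 19.1% of genes were called lower. The array-set fit gave -1.61, a value that contains the gap between parental array 4 and the other parental arrays and is no direct difference.

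**Figure D2:**
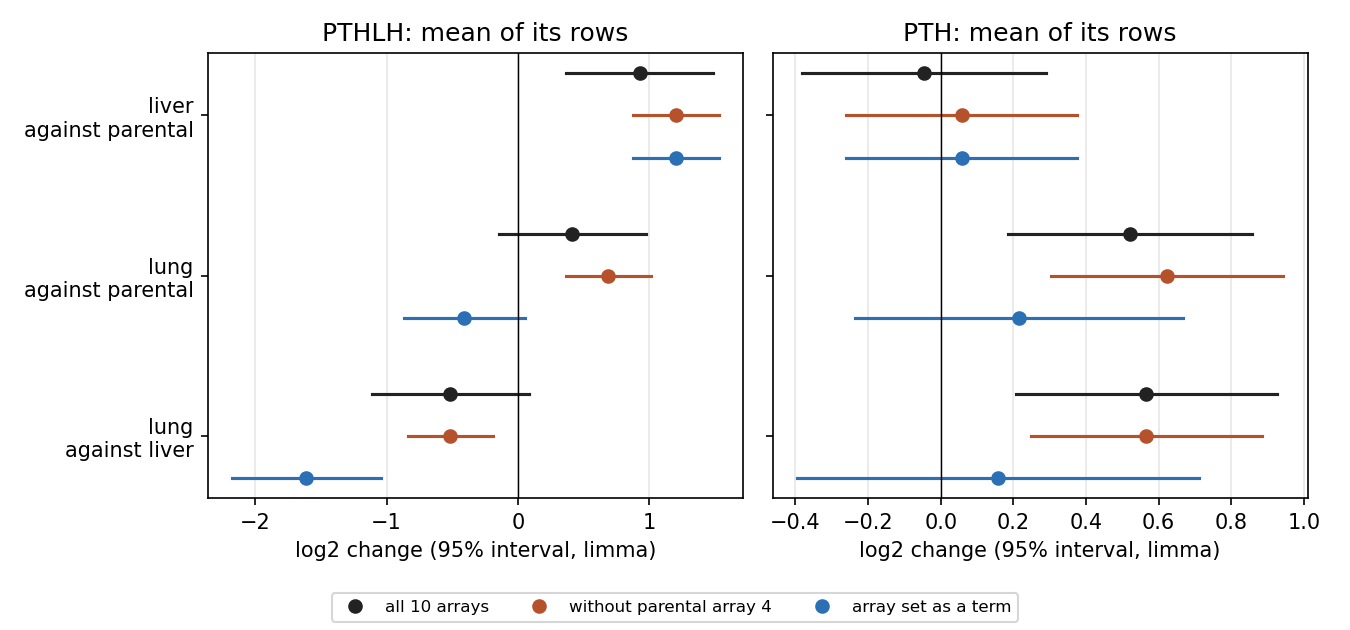
Log2 change of the mean of rows with its 95% interval from limma, for PTHLH and PTH in each comparison, with all 10 arrays, without parental array 4 and in the array-set fit. For PTHLH the lung difference from parental moves from 0.69 without parental array 4 to -0.41 in the array-set fit.

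The rows of PTHLH moved largely together, and the difference between parental array 4 and its group was seen across them. Rows are numbered 1 to 11 in table order. The level on parental array 4 was the highest of the parental levels in 10 of the 11 rows and the lowest in row 11. Its gap to the mean of the other 3 ran from -1.04 in row 11 to 2.42 in row 1.

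Row 1 showed the widest gap. Its parental values were 5.96, 6.17, 5.92 and 8.44, its liver values 7.81, 8.35 and 8.30, and its lung values 7.12, 7.75 and 7.18. Parental array 4 was above all other arrays in this row, and the remaining parental arrays were below the lowest lung array. Row 3 read 7.997, 8.56, 8.48 and 10.20 in parental, 9.65, 10.002 and 10.34 in liver, and 8.89, 9.58 and 9.45 in lung cells. Row 4 read 8.64, 8.89, 9.08 and 10.32 in parental, 10.06, 10.39 and 10.69 in liver, and 9.64, 10.28 and 9.73 in lung cells. In both, parental arrays 1 to 3 were below every derivative array and parental array 4 was among the liver arrays. Row 8 read 6.61, 6.92, 7.41 and 8.56 in parental, 8.40, 8.63 and 9.01 in liver, and 8.07, 8.43 and 7.74 in lung cells, with the same order.

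Row 6, the brightest, was the 1 row in which every liver array exceeded every parental array. Its parental values were 9.16, 9.83, 10.15 and 10.93, its liver values 10.96, 11.25 and 11.25, and its lung values 10.17, 10.60 and 10.42. Lung arrays there lay between parental array 3 and parental array 4. Row 7 read 9.01, 9.16, 9.50 and 10.25 in parental, 10.03, 10.24 and 10.22 in liver, and 9.84, 9.91 and 10.01 in lung cells. Row 5 read 8.48, 8.70, 8.79 and 9.63 in parental, 9.30, 9.49 and 9.92 in liver, and 8.97, 9.21 and 8.85 in lung cells. In these rows parental arrays 1 to 3 were again the lowest, and every lung array lay below every liver array.

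The remaining rows varied more. Row 2, the dimmest, read 5.22, 4.48, 5.10 and 5.99 in parental, 5.56, 6.88 and 6.42 in liver, and 5.52, 6.70 and 6.89 in lung cells, and was the only row with a lung mean above the liver mean. Row 9 read 7.03, 7.96, 7.95 and 8.74 in parental, 8.73, 8.96 and 9.20 in liver, and 8.16, 8.31 and 6.99 in lung cells, where lung array 3 was the lowest of all 10 arrays. Rows 10 and 11 hardly separated the groups. Row 10 read 8.07, 7.95, 7.999 and 8.43 in parental, 8.31, 8.33 and 8.07 in liver, and 8.22, 8.27 and 8.14 in lung cells. Row 11 read 7.85, 7.61, 7.82 and 6.72 in parental, 7.79, 7.93 and 7.62 in liver, and 7.40, 7.69 and 7.02 in lung cells, and was the row in which parental array 4 was lowest.

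**Figure D3:**
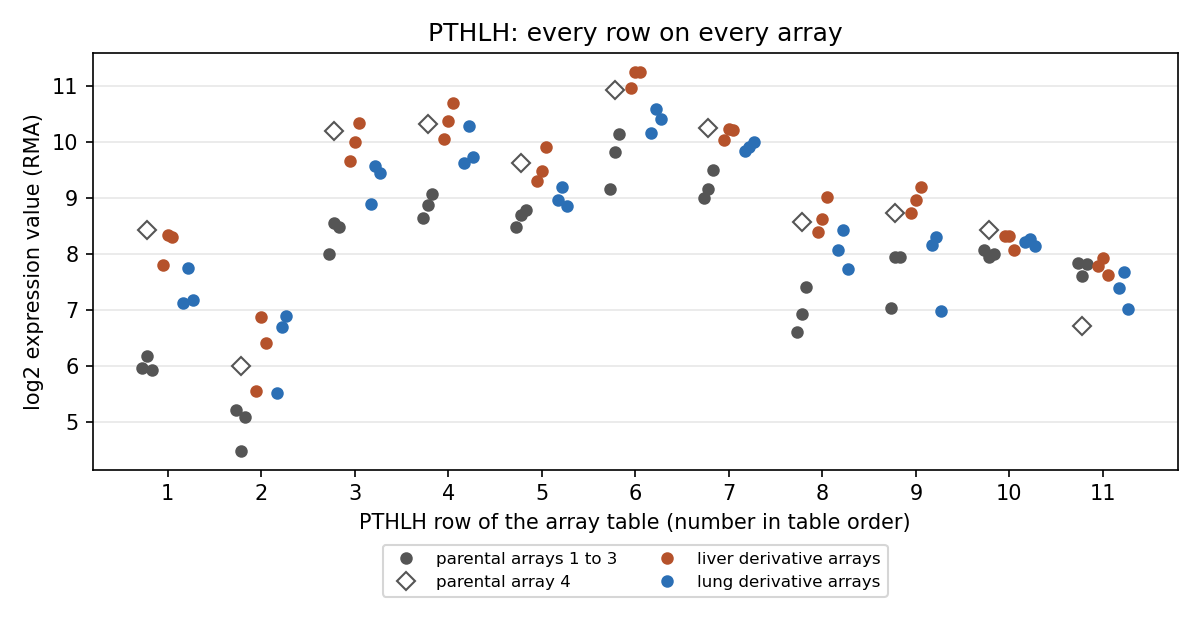
Log2 value of each of the 11 PTHLH rows (horizontal axis, in table order) on each array, with points for single arrays and the open diamond for parental array 4. In rows 1 to 10 the diamond lies above the other 3 parental arrays, and in row 11 it lies below them at 6.72.

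The liver mean was above the parental mean in 11 of 11 rows, by 0.12 in row 10 to 1.53 in row 1. With all arrays 0 of 11 rows were called (limma adjusted p 0.174 to 0.788), where 2.20% of all tested rows were called in either direction, and 9 of the 11 were higher at an unadjusted p under 0.05. Without parental array 4, 7 of the 11 were called higher (rows 1, 3, 4, 5, 6, 7 and 8, adjusted p 0.00176 to 0.0364), against 1.36% of all rows. All liver arrays exceeded parental arrays 1 to 3 in 9 of the 11 rows, a separation found in 11.9% of all rows, and all 4 parental arrays in 1 of the 11 (8.59% of all rows).

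For lung against parental, 9 of the 11 rows had a higher mean, and 0 of 11 were called (lowest limma adjusted p 0.112, row 2), against 13.1% of all rows, with 1 row higher at an unadjusted p under 0.05. Without parental array 4, 6 of the 11 were called higher (rows 1, 2, 3, 4, 7 and 8, adjusted p 0.00349 to 0.0433), against 12.3% of all rows. All lung arrays exceeded parental arrays 1 to 3 in 9 of the 11 rows (19.1% of all rows) and all 4 parental arrays in 0 (9.31% of all rows). For lung against liver, 10 of the 11 rows had a lower mean, and 0 were called (lowest limma adjusted p 0.107, row 9) against 12.6% of all rows, with 1 lower at an unadjusted p under 0.05. In 6 rows every lung array lay below every liver array (24.2% of all rows). No row was found to differ from the other rows of PTHLH in its change (limma diffSplice, gene-level adjusted p 0.968 for liver against parental, 0.583 for lung against parental and 0.799 for lung against liver).

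The gap of PTHLH on parental array 4 was among the widest of any gene. Its mean level there was 1.10 above the mean of parental arrays 1 to 3, and 0.212% of genes had a wider gap in either direction. PTHLH was 1 of 9 genes that stood at least 1 log2 unit higher on that array, and 5 genes stood at least 1 lower. DKK1, a secreted Wnt antagonist, was another of the 9, with a gap of 1.25.

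**Figure D4:**
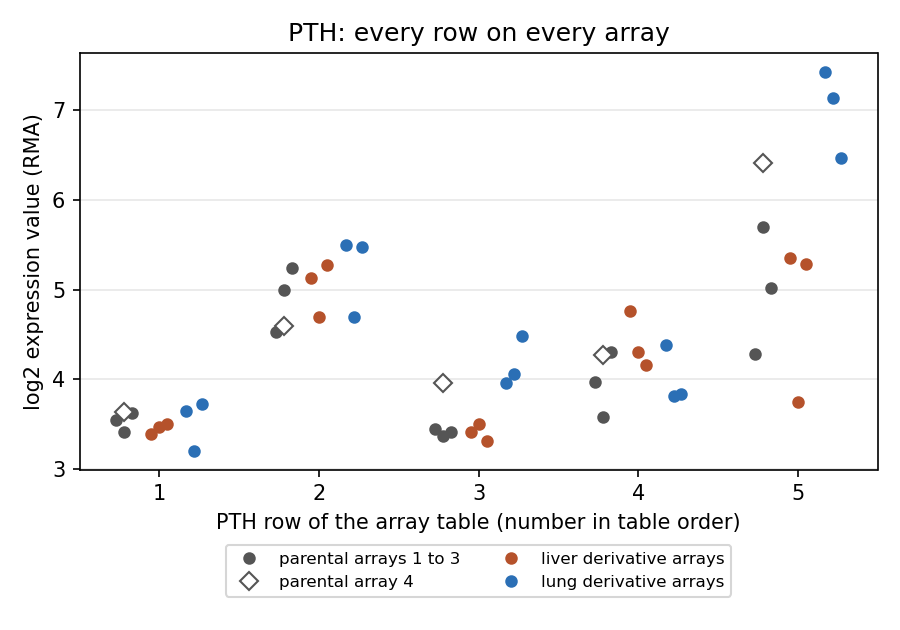
Log2 value of each of the 5 PTH rows (horizontal axis, in table order) on each array, with points for single arrays and the open diamond for parental array 4. Lung arrays stand above the others in row 5, where they read 6.46 to 7.43, and overlap the parental range in rows 1 to 4. In row 3 the overlap is with parental array 4 alone, at 3.96.

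PTH was dim on every array, and the lung arrays were the highest. The means of its 5 rows lay between 3.51 and 5.68, all under 6.81, the lower quartile of the row means in the table. No detection call was among the values used here, so it was not tested whether PTH was above background on any array. Its parental levels were 3.96, 4.21, 4.32 and 4.57, its liver levels 4.41, 3.94 and 4.31, and its lung levels 4.98, 4.58 and 4.80. Every lung array lay above every parental and every liver array, but lung array 2 exceeded parental array 4 by little (4.58 against 4.57). The group levels were 4.22 ± 0.24 for liver (SD, n = 3), 4.26 ± 0.26 for parental (SD, n = 4) and 4.79 ± 0.20 for lung (SD, n = 3), and the liver and parental levels did not differ beyond their spread.

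PTH was 0.52 higher in lung than in parental cells (SE 0.15, 95% interval 0.19 to 0.86), or 1.44-fold, and was called with a limma adjusted p of 0.0264. In that comparison 12.9% of genes were called higher, the groups separated upwards in 12.8% of genes, and 6.56% of genes had a larger difference in either direction. Lung exceeded liver by 0.57 (SE 0.16, 95% interval 0.21 to 0.93), or 1.48-fold, with a limma adjusted p of 0.0349, where 8.02% of genes were called higher and 18.9% separated upwards. Liver and parental cells differed by -0.045 (95% interval -0.38 to 0.29, adjusted p = 0.924). Without parental array 4 lung exceeded parental by 0.62 (95% interval 0.30 to 0.94, limma adjusted p = 0.00695). There 18.2% of genes were called higher. The lung against liver difference stayed at 0.57 (limma adjusted p = 0.015), where 13.2% of genes were called higher. In the array-set fit lung stood only 0.21 above parental array 4. The lung against liver value of that fit, 0.16, contains the gap between parental array 4 and the other parental arrays. It is no direct difference between lung and liver.

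The rows of PTH did not move together. Row 5, the brightest, read 4.28, 5.69, 5.02 and 6.41 in parental, 5.36, 3.75 and 5.29 in liver, and 7.43, 7.14 and 6.46 in lung cells. All lung arrays were above all others in row 5, lung array 3 by a narrow margin over parental array 4. Row 3 read 3.45, 3.37, 3.41 and 3.96 in parental, 3.41, 3.50 and 3.31 in liver, and 3.95, 4.06 and 4.48 in lung cells. In row 3 parental array 4 fell among the lung arrays, and the other parental and liver arrays were lower.

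Rows 1, 2 and 4 showed overlapping groups. Row 1 read 3.55, 3.41, 3.62 and 3.63 in parental, 3.39, 3.47 and 3.50 in liver, and 3.65, 3.20 and 3.72 in lung cells. Row 2 read 4.53, 5.00, 5.24 and 4.59 in parental, 5.13, 4.70 and 5.27 in liver, and 5.50, 4.69 and 5.47 in lung cells. Row 4 read 3.97, 3.59, 4.30 and 4.27 in parental, 4.76, 4.30 and 4.16 in liver, and 4.38, 3.82 and 3.84 in lung cells, and lung was lower than liver there on average.

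Lung against parental gave 1 called PTH row of 5, row 3 (0.62, limma adjusted p = 0.0488), against 5.15% of all rows called higher, and row 5 missed the threshold (1.66, adjusted p = 0.0723). Lung against liver gave 2 of 5, row 3 (0.75, adjusted p = 0.0361) and row 5 (2.21, adjusted p = 0.0405), against 5.02% of all rows called higher. When 1 array was left out at a time, 9 of 10 fits called 0 PTH rows for lung against parental, all but that without parental array 4, and 8 of 10 called 0 for lung against liver, all but those without parental array 1 or 4. Liver against parental gave 0 of 5 (limma), and also 0 at an unadjusted p under 0.05. Row 5 rose more than the other PTH rows, by 1.42 against parental (diffSplice adjusted p = 0.00733) and by 2.06 against liver (adjusted p = 0.000214), while row 4 fell relative to the other rows against liver (-1.20, adjusted p = 0.033). Unequal rows were common in these comparisons: by the gene-level test of diffSplice 61.8% of genes were called for lung against parental and 68.8% for lung against liver. With the median of the rows in place of their mean, the PTH differences were 0.27 for lung against parental (adjusted p = 0.431) and 0.085 for lung against liver (adjusted p = 0.849). Among the rows under the lower quartile of row means, 4.57% were called higher in lung than in parental cells and 3.17% lower, and among those above the upper quartile 4.25% and 8.73%. The part of this dependence on brightness in the PTH result was not tested.

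Other genes of the PTHLH pathway were read from lists of receptor and signalling components, transcriptional regulators, hedgehog genes, processing enzymes, calcium hormones and mediators of bone metastasis. PTH1R, PTH2R, the PTH2R ligand gene PTH2 and the p38 kinases MAPK11 to MAPK14 were not analysed here. The share of all genes called was 4.33% higher and 3.50% lower for liver against parental, and 12.9% higher and 17.3% lower for lung against parental. Without lung array 1 it was 7.70% higher and 10.1% lower for lung against parental, and 1.55% higher and 2.44% lower for lung against liver. In the array-set fit it was 3.08% higher and 2.67% lower for lung against parental, and 0.0637% higher and 0.0212% lower for lung against liver.

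Of the signalling list, 10 of 47 genes were measured. In liver against parental 0 rose and 2 fell, with a list median of 0.03 against 0.01 over all genes, and in lung against parental 1 rose and 4 fell, with a median of -0.12 against -0.01. ADCY6, an adenylate cyclase that makes cAMP, fell by 0.65 in liver (SE 0.06, limma adjusted p = 7.59e-05) and by 0.37 in lung cells (adjusted p = 0.0027). ITPR2, an inositol trisphosphate receptor that releases calcium from internal stores, fell in both derivatives (adjusted p = 0.0125 in liver, 2.83e-05 in lung), to 9.88 to 10.19 in lung cells from 11.08 to 11.30 in the parental line. PRKACB, a catalytic subunit of protein kinase A, fell by 0.29 in lung cells, and the phosphodiesterase PDE3B fell by 0.32. The phosphodiesterase PDE4B, which degrades cAMP, rose by 0.35 in lung cells. Its mean level over all arrays was 6.39, under the lower quartile of row means (6.81). Against parental array 4 alone, in the array-set fit, 0 genes of the list were called higher and 2 lower in lung cells, ADCY6 and ITPR2.

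Of the regulators of PTHLH transcription, 9 of 32 were measured. In liver against parental 0 rose and 1 fell (median 0.00 against 0.01 over all genes), and in lung against parental 1 rose and 3 fell (median -0.08 against -0.01). TGFB2, a growth factor whose signal raises PTHLH in several tumours, rose by 1.01 in lung cells (SE 0.19, limma adjusted p = 0.004) and stood 0.34 above parental in liver cells (adjusted p = 0.396). Its highest parental value, 7.91, was parental array 4, and in the array-set fit the lung difference was 0.51 (adjusted p = 0.179). VDR, the vitamin D receptor through which vitamin D represses PTHLH, fell by 0.60 in lung cells (adjusted p = 0.00506). JUN, a subunit of the AP-1 factor, fell by 0.48 in liver and 0.64 in lung cells. SP1 fell by 0.16 in lung cells (adjusted p = 0.0484), and ETS1 did not pass in either derivative (-0.37 in liver with adjusted p = 0.182, 0.07 in lung with adjusted p = 0.734). With all arrays the shares over all genes were 4.33% higher and 3.50% lower for liver, and 12.9% and 17.3% for lung. Whether the counts of this list differ from these shares was not tested. Without parental array 4 these shares were 4.65% higher and 4.31% lower for liver, and 18.2% and 23.2% for lung. Without parental array 4 the counts were 1 higher and 2 lower for liver and 2 higher and 5 lower for lung, and in the array-set fit they were 0 and 0 for lung (limma), with 2 higher and 2 lower at an unadjusted p under 0.05.

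**Figure D5:**
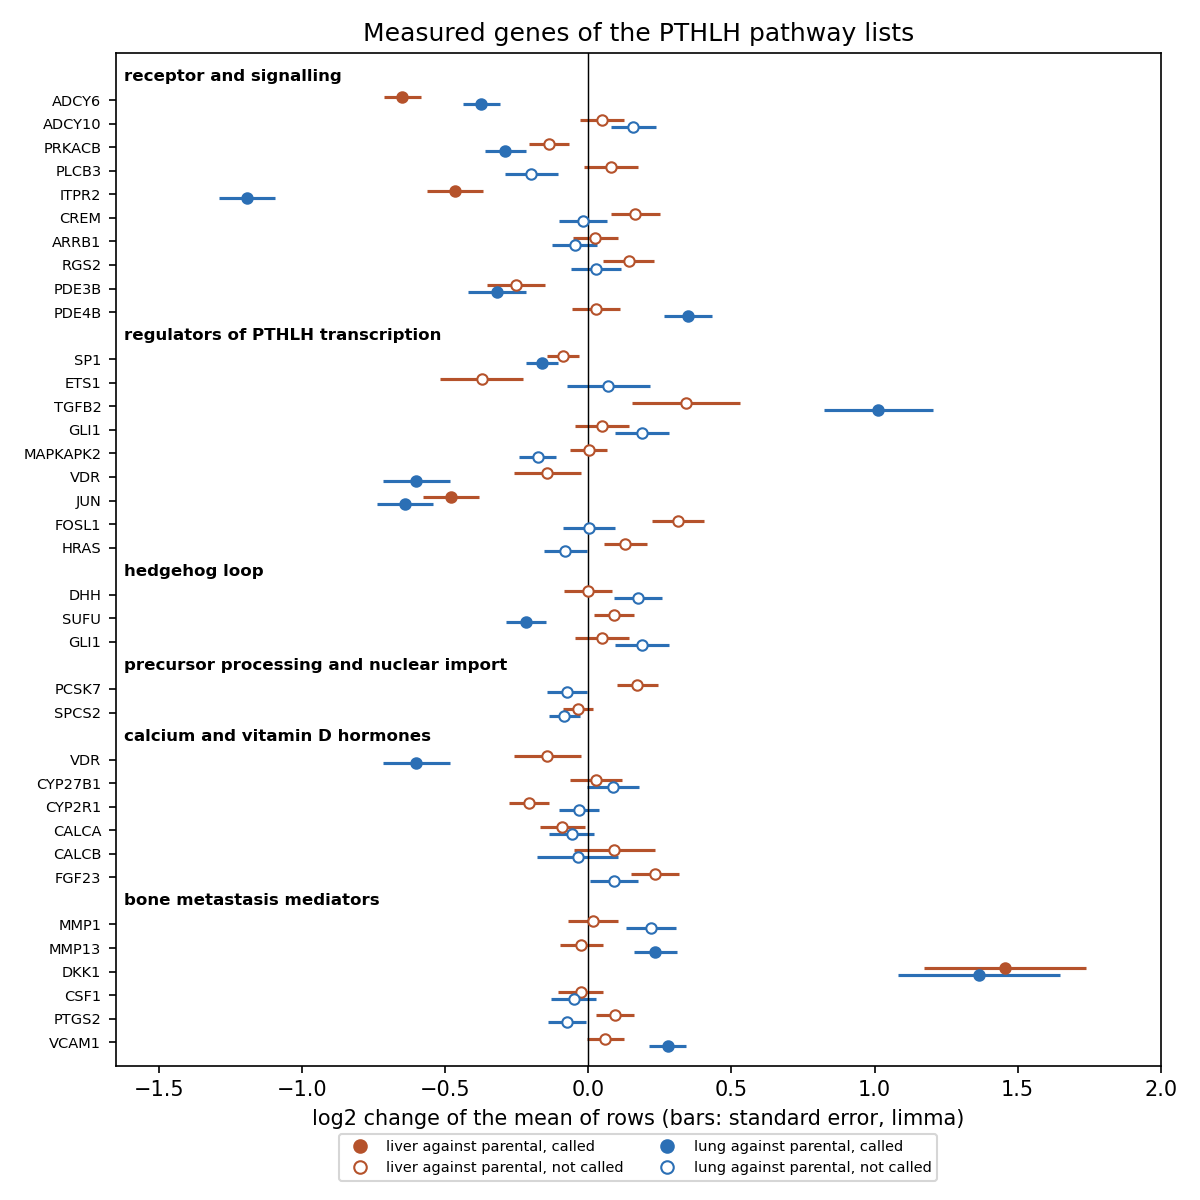
Log2 change of the mean of rows against parental (horizontal axis, bars give the standard error) for each measured gene of the pathway lists, in liver and lung derivatives, with filled points for called genes. DKK1 lies farthest to the right, at 1.46 in liver and 1.36 in lung cells, and ITPR2 in lung cells farthest to the left.

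Of the bone metastasis mediators, 6 of 18 were measured, and 1 rose in liver and 3 in lung cells, with none falling (medians 0.04 and 0.23 against 0.01 and -0.01 over all genes). DKK1 rose by 1.46 in liver (SE 0.28, limma adjusted p = 0.00744) and by 1.36 in lung cells (adjusted p = 0.00627). Its parental median was 6.92, its liver arrays read 8.41 to 8.73, its lung arrays 8.22 to 8.78, and parental array 4 read 8.06, below both derivatives. Against that array alone the lung difference was 0.43 (adjusted p = 0.248). The collagenase MMP13 and the adhesion molecule VCAM1 rose in lung cells by 0.23 and 0.28, and by 0.24 and 0.22 in the array-set fit. Both were dim, at mean levels of 5.63 and 5.88 over all arrays, under the lower quartile of row means (6.81). Whether either was above background was not tested.

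The shorter lists held few measured genes. Among 3 of 13 hedgehog genes, SUFU, an inhibitor of GLI factors, fell by 0.22 in lung cells (limma adjusted p = 0.039; -0.17 with adjusted p = 0.344 in the array-set fit), and in liver cells 0 were called (limma), also at an unadjusted p under 0.05. Among 2 of 18 processing genes, 0 were called against parental (limma), with 1 higher in liver cells at an unadjusted p under 0.05. PCSK7, a proprotein convertase, was 0.25 lower in lung than in liver cells (limma adjusted p = 0.0423). The array-set fit gave -0.10 for PCSK7, which is no direct difference between lung and liver. Without lung array 1 neither list had a called gene in these comparisons (0 by limma; at an unadjusted p under 0.05, 1 of each was lower in lung than in liver cells). Among 6 of 16 calcium and vitamin D genes, VDR was the only one called in lung and 0 were called in liver cells (limma; 1 was higher and 1 lower at an unadjusted p under 0.05).

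In lung against liver the signalling list had 2 genes higher and 1 lower, the regulators 1 and 2, and the bone mediators 2 and 0, where 8.02% of all genes were called higher and 11.9% lower. FOSL1, an AP-1 subunit, was 0.31 lower in lung than in liver cells (adjusted p = 0.0445), and ADCY6 was 0.28 higher (adjusted p = 0.0238). In the array-set fit these 3 lists had 0 called genes in either direction (limma; 2 higher and 2 lower in all at an unadjusted p under 0.05), and without lung array 1 they had 1 in all, in the signalling list.

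Markers of cell types were read beside these results. The colon epithelial keratin genes KRT8 and KRT18 were at 12.71 to 12.91 and 11.50 to 11.78 over the 10 arrays, with no call against parental. The called genes of that list, of which 6 of 13 were measured, were lower in both derivatives, 3 of 6 in each. They were the epithelial factor ELF3 (-0.51 in liver, -0.25 in lung), the intestinal stem cell receptor LGR5 (-0.81 and -1.27) and the tetraspanin TSPAN8 (-1.12 and -0.43). Without lung array 1 the lung count was 1. For lung against parental without lung array 1, 7.70% of all genes were called higher and 10.1% lower, fewer than with all arrays. Without parental array 4 these shares were 18.2% and 23.2%. They apply to the counts of the lists below as well. Of the parathyroid markers, GATA3 was the measured gene other than PTH, and it stayed between 7.14 and 7.50. Keratinocytes are a known source of PTHLH, and of 15 measured keratinocyte and squamous markers out of 17, 4 rose and 0 fell in liver cells and 6 rose and 1 fell in lung cells, against 4.33% and 3.50% of all genes in liver and 12.9% and 17.3% in lung cells. The lung count was 1 higher and 0 lower in the array-set fit, and 4 and 0 without lung array 1. The mean level of that list was 6.88 to 7.09 in parental, 7.30 to 7.32 in liver and 7.32 to 7.35 in lung cells. KRT5, a basal epithelial keratin, rose by 2.31 in liver and 2.32 in lung cells. On parental array 4, where PTHLH was high, 4 of the 15 markers had their highest parental value and 5 their lowest, and the list mean of 7.09 was the highest of the parental arrays. KRT6C (7.27), SPRR1A (8.12), SPRR1B (7.45) and LOR (6.80) were highest there, and KRT5 (6.96), KRT1, KRT2, SFN and S100A7 were lowest. The high list mean on that array rested largely on KRT6C, a gene of 1 row, which stood 2.07 above the mean of the other parental arrays. The part of these markers in the PTHLH result was not tested. The leukocyte list had 3 of 13 genes higher in liver and 7 of 13 in lung cells, at a mean level of 6.29 to 6.42 in parental, 6.60 to 6.65 in liver and 6.78 to 6.87 in lung cells. Its lung count was 9 without parental array 4, 4 in the array-set fit and 5 without lung array 1, and its part was not tested either. The lung epithelial list had 3 of 6 genes higher in lung cells and 0 called in liver cells (limma; 1 higher at an unadjusted p under 0.05), at a mean level of 7.26 to 7.42 in parental, 7.34 to 7.46 in liver and 7.49 to 7.61 in lung cells. Its lung count was 0 in the array-set fit (2 higher at an unadjusted p under 0.05) and 1 without lung array 1. Of 9 hepatocyte genes 1 was lower in each derivative, of 6 stromal genes 1 was lower in liver and 2 were higher and 1 lower in lung cells, and of 4 endothelial genes 1 was higher in lung cells. The part of these lists was not tested.

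Genes whose level over the 10 arrays was most like that of PTHLH were ranked by Pearson's r among the 4153 genes with at least 3 rows. The highest were BORCS5 (0.917), SLC4A8 (0.890), VIM (0.858), DKK1 (0.854) and PTPRE (0.854), and the lowest were AK3L1 (-0.915), DGAT2 (-0.908) and MLLT11 (-0.907). For PTH the highest were FCRL6 (0.967), IFNG (0.942), ANO5 (0.940), FAM177B (0.938) and CACNB2 (0.933), and the lowest DRC8 (-0.961), POLD3 (-0.949) and ELOVL1 (-0.939). These are descriptions over 10 arrays in 3 groups that share parental array 4 and the normalisation.

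The nearest measured neighbours of PTHLH on chromosome 12 were REP15, MRPS35 and KLHL42 on one side and CCDC91, FAR2 and ERGIC2 on the other. Their liver differences from parental ran from -0.22 to 0.27, with 0 of 6 called (limma; 1 lower at an unadjusted p under 0.05), and parental array 4 differed from its group by -0.29 to 0.19 in them, against 1.10 for PTHLH. CCDC91 was lower in lung cells than in parental cells by 0.38 (limma adjusted p = 0.0056). In lung against liver 2 of the 6 were called lower, REP15 (-0.44, adjusted p = 0.0403) and CCDC91 (-0.43, adjusted p = 0.0124), and KLHL42 stood at -0.27 (adjusted p = 0.0688), beside -0.51 for PTHLH. The neighbours of PTH on chromosome 11, RASSF10, BMAL1, BTBD10, FAR1, SPON1 and RRAS2, gave 0 calls in any comparison (limma; at an unadjusted p under 0.05, 1 was higher in lung than in parental and 1 higher in lung than in liver cells), with lung differences from parental of -0.03 to 0.23.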

How the data were processed

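RNA of 10 samples was hybridised to Affymetrix HG1.0ST arrays. The values are log2 expression levels normalised by the authors with RMA in the oligo package, per the submitters' processing notes; versions, the summary level of a row and the genome build are not given in the sources used here. Rows were named through the platform's probe table, of which 54806 list 1 gene, 2143 several and 8586 none. Genes were updated through synonyms where the listed symbol was old (601 genes). A row fit on 56949 rows and a gene fit on the mean of rows of 4713 genes were made with limma 3.58.1 in R 4.3.3 on all 10 arrays, two-sided, with Benjamini-Hochberg adjustment within each comparison. The fit was tested on simulated data. Other work used Python 3.11.15.

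The genes and lists were chosen with earlier results of these data known. Named are all PTHLH and PTH rows; called list genes, up to 6 per list and comparison; the 5 highest and 3 lowest in likeness; 3 measured neighbours on each side; and defining markers. Some values outside this rule, such as genes of widest gap, were named after their values were seen. Alternatives were other normalisations, row summaries, filters, moderation, a replicate block, the array set and leaving out each array. The fits without parental array 4 and with the array set were put beside the main results after seeing the data. The same holds for these fits, and for leaving out lung array 1, in the list counts. Promoter windows are RefSeq's for GRCh38.p14, and both genes matched.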

Additional observations from a re-analysis of the deposited data

Results flagged for a closer look

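A sample far from the others of its group was found in 2 of the 18 parental sets of 4 arrays examined (16 rows and both gene means), where chance marks about 1 in 20 such sets. In PTHLH row 1 the value of parental array 4 was 8.44, against 5.92 to 6.17 on the other parental arrays. In PTH row 3 it was 3.96, against 3.37 to 3.45.

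The liver and lung derivatives differed in their change from the shared parental arrays in 3 results, by the limma test of lung against liver. These were the PTH mean of rows (0.57, adjusted p = 0.0349), PTH row 3 (0.75, adjusted p = 0.0361) and PTH row 5 (2.21, adjusted p = 0.0405). The causes were not tested.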

How the results depend on the processing

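The sign of the PTHLH difference between liver and parental cells was kept in all 18 alternatives, and its adjusted p ran from 0.000251 to 0.182. It lost its call with quantile normalisation (0.92, adjusted p = 0.0564), median centring (0.93, 0.0551), the brightest row of each gene (1.14, 0.146) and a fit on the compared groups only (0.93, 0.0759), and it ran from 0.77 to 1.20 when 1 array was left out. PTHLH rows called for liver numbered 7 with the array set as a term and 0 to 7 with 1 array left out. For lung against parental the PTHLH difference was 0.09 by the median of the rows (adjusted p = 0.759) and ran from 0.26 to 0.69 and its called rows from 0 to 6 with 1 array left out. For lung against liver it passed by the median of the rows (-0.70, adjusted p = 0.0436) and with the compared groups only (-0.51, 0.0369), in a range of 0.012 to 0.367 over the alternatives. It ran from -0.65 to -0.44 with 1 array left out, and its called rows were 1 with the array set, 1 with the compared groups only and 0 to 1 with 1 array left out.

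The PTH difference of lung from parental was not called with the array set (0.21), the brightest row (1.66, adjusted p = 0.0503) or the median of the rows (0.27), and ran from 0.42 to 0.62 with 1 array left out, where 6 of 10 fits kept the call (adjusted p 0.00695 to 0.545 over all alternatives). Lung against liver was not called with the array set (0.16) or the median (0.085), and ran from 0.43 to 0.67 with 1 array left out, where 5 of 10 fits kept the call. Called PTH rows were 0 for lung against parental with the array set and with the compared groups only, and 0 to 2 with 1 array left out, where 9 of 10 fits gave 0. For lung against liver they were 0 with the array set, 1 with a trended, robust prior, and 0 to 2 with 1 array left out, where 8 of 10 gave 0. Leaving out dim rows, those under the median row mean, gave no value for PTH, since all of its rows were removed and none was tested.

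Replicate numbers did not pair the samples: the deviations of samples with the same number correlated at -0.117 to 0.0404. With the replicate number as a block, parental array 4 has no partner and drops out. The block gave 6 PTHLH rows for liver, 6 for lung (mean 0.69, adjusted p = 0.00234) and 3 for lung against liver (mean -0.51, adjusted p = 0.012). Rows called in the whole table were 786 with the block for liver (1252 without) and 12420 for lung against parental (7483 without).

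Over the whole table the called rows ran from 527 to 1464 for liver, 2519 to 16222 for lung against parental and 0 to 14167 for lung against liver when 1 array was left out. The array set, whose lung comparison rests on 1 parental array, gave 635 rows for lung against parental and 36 for lung against liver, and the compared groups only gave 2120 for lung against parental. The arrays give no detection call here, which limits PTH most. The causes of these differences were not tested.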
